A study of Homo sapiens with 16 samples.

Results

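Tropomyosins, alpha-actinins and the smooth muscle type actin binders were followed as 9 genes, chosen by name: TPM1, TPM2, TPM3 and TPM4, ACTN1 and ACTN4, CALD1, CNN1 and TAGLN. They are 9 of 20033 protein-coding genes in the RefSeq table of GRCh38.p14. A peak belonged to a gene when its summit lay in the gene or within 50 kb of it. Under this rule the windows held 231 of 129755 peaks in selected cells on soft gel, 199 of 122591 in selected cells on stiff gel, 157 of 109578 in ancestral cells on soft gel and 171 of 116043 in ancestral cells on stiff gel.

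ATAC-seq maps accessible chromatin with a transposase that inserts adapters where DNA is exposed, and was applied to MDA-MB-231, an established human breast adenocarcinoma line labelled as wild type. Polyacrylamide gels carrying type I collagen were soft (1 kPa) or stiff (308 kPa), and the 16 samples fell into 4 groups of 4: selected cells on soft gel, selected cells on stiff gel, ancestral cells on soft gel and ancestral cells on stiff gel. Selection meant passaging 20000 cells onto fresh gel for 75 days. The design text speaks of soft-selected cells. The protocol passages cells on soft and on stiff gel, each kept at its own stiffness, and the labels of the selected samples on stiff gel do not say at which stiffness they had been passaged.

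Peaks were deposited as 1 list for each group, which leaves no spread between samples. No test between groups was possible, and intervals cover counting error only. The median pileup, which is the number of fragments stacked at a peak summit, was 51 and 56 in selected cells on soft and stiff gel and 111 and 132 in ancestral cells. Each pileup is therefore given over the median of its own list, so that a value of 1 is a peak of median height. The lowest listed peak stood at 0.53 and 0.46 of the median in selected cells and at 0.28 in both ancestral lists. About 1.00% of the peak numbers were skipped in each list, and in each the shortest stretch that holds a skipped number was longer than the widest listed peak. A region without a listed peak that overlaps such a stretch was called undetermined in that list. There were 17 such stretches in the windows of TPM2, TPM4, ACTN4 and TAGLN, and 0 in those of the other 5 genes. Among 5 markers of this mesenchymal line, VIM, CAV1 and MSN had a peak at a start in all 4 lists, while the start of AXL was undetermined in all 4. The luminal marker KRT8 also had a strong start peak in all 4, and the blood marker PTPRC had none.

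Tropomyosins are coiled-coil proteins that lie along actin filaments and decide which other proteins may bind there. Alpha-actinins cross-link filaments into bundles and tie them to focal adhesions. Caldesmon (CALD1), calponin (CNN1) and transgelin (TAGLN) bind actin and are best known from smooth muscle. Caldesmon and calponin also damp the sliding of myosin. Many genes of this kind carry CArG boxes, the sites of serum response factor, whose cofactors MRTFA and MRTFB respond to the pool of free actin, and TEAD factors with the cofactor YAP bind near many of the same genes.

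The 250 bases before a start are shown for 4 genes whose start peaks differ in kind. TPM1 had a start peak that was lower on soft gel in both populations, TPM4 has a CArG box, the third CALD1 start had a strong peak of like height in all 4 lists, and CNN1 had a weak peak. Capitals mark a CArG box, the TEAD motif GGAATG or the AP-1 motif TGANTCA, searched on both strands, which do not overlap each other here. Sequences are RefSeq's, GRCh38.p14, 5′ to 3′ on the plus strand, which is the strand of all 4 genes.
TPM1, chr15:63048239-63048488: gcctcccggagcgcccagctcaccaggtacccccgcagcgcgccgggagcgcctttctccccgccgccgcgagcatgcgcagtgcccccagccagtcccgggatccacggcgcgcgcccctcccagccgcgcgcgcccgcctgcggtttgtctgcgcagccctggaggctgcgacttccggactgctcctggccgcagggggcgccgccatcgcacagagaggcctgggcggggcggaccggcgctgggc
TPM4, chr19:16067288-16067537: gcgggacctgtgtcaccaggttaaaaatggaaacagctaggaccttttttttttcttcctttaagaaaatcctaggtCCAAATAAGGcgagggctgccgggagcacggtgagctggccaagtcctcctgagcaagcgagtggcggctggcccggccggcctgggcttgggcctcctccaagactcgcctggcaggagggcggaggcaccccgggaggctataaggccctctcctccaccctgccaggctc
CALD1, chr7:134779384-134779633: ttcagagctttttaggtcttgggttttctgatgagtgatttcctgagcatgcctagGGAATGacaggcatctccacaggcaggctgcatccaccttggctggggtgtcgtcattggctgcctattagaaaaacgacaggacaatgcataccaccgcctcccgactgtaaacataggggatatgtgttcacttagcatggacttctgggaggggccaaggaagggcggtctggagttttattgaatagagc
CNN1, chr19:11538601-11538850: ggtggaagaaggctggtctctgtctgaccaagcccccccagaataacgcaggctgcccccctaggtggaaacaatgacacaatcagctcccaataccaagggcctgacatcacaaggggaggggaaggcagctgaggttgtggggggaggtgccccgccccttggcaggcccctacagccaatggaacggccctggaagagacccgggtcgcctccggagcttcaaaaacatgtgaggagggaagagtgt

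The table holds 19 starts of 8 of the 9 genes. A CArG box lay before 2 of the 19 starts, of ACTN1 and TPM4, against 1.16% of all 35116 promoters of this length. The TPM4 box begins 173 bases before the start. The TEAD motif lay before 3 of the 19, of ACTN1 and CALD1, against 11.9% of all promoters, and begins 194 bases before the third CALD1 start. The AP-1 motif lay before 2, of ACTN4 and CALD1, against 6.57%. These are letter matches, not measured binding.

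At the starts, the peaks of TPM2, the first TPM3 start, the outer ACTN1 starts, the third and the fourth CALD1 start and the readable end of TAGLN differed by less than 1.5-fold between the 4 lists. The starts of TPM1 and CNN1, the outer start of TPM4, the inner start of ACTN4 and the first start of CALD1 also had a peak in all 4 lists and spanned more than that. With the ends of TAGLN, which has no start in the table, 21 positions were examined. A peak lay within 1 kb of 18 in selected cells on soft gel, 18 in selected cells on stiff gel, 15 in ancestral cells on soft gel and 14 in ancestral cells on stiff gel. In the ancestral lists 4 positions were undetermined, against 1 in the selected lists, so these counts do not show fewer open starts in ancestral cells.

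**Figure D1:**
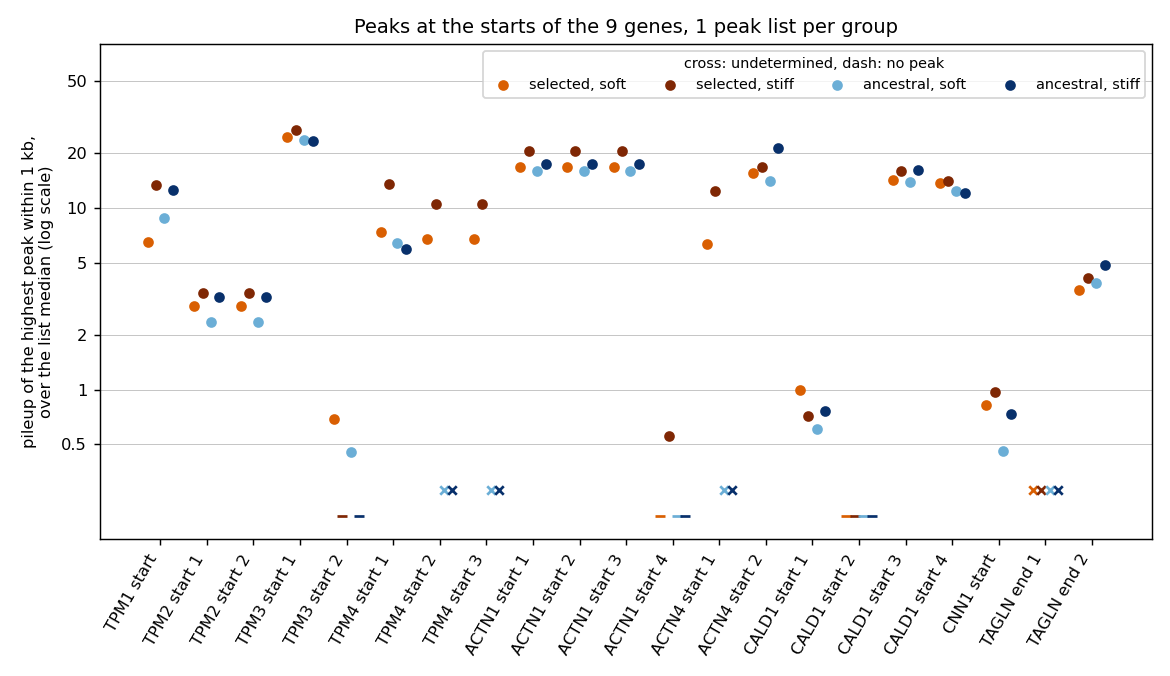
Pileup of the highest peak within 1 kb of each RefSeq start, and of each end of TAGLN, over the median of its list (log axis), in the 4 lists. Starts are numbered in gene direction. The outer TPM4 start spans 5.96 to 13.6 and TPM1 6.49 to 13.3, while the first TPM3 start stays between 23.4 and 26.7 and CNN1 lies below 1.

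TPM1 encodes a tropomyosin of stress fibres (chr15:63042747-63071915). Its RefSeq start lies in the peak region chr15:63047506-63049457, which it shares with the antisense gene TPM1-AS. The peak was 6.49 times the list median in selected cells on soft gel and 13.3 times in selected cells on stiff gel, against 8.82 times in ancestral cells on soft gel and 12.6 times in ancestral cells on stiff gel. Both soft lists lay below both stiff lists. The soft over stiff log2 ratio was −1.04 in selected cells and −0.51 in ancestral cells.

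The ratio between lists depends on peak height over the whole genome, so each log2 ratio was also taken relative to the genome-wide median of regions of the same height, a correction chosen after the data were seen. On that scale the TPM1 start stood at −0.86 soft over stiff in selected cells and −0.26 in ancestral cells. In selected cells 6 of 149 window regions were at least 1.5-fold lower on soft gel on this scale, against 3.49% of regions in the genome. Those 6 were 2 in the TPM1 window, 2 in the ACTN4 window and 2 in the TAGLN window.

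The other TPM1 region of this kind, chosen after its values were seen, lies outside the gene at chr15:63089132-63089825. It stood at 0.765 and 1.38 in selected cells on soft and stiff gel, against 1.60 and 1.69 in ancestral cells. Selected cells on soft gel were the low list, with a log2 ratio relative to height of −0.98 against selected cells on stiff gel and −1.29 against ancestral cells on soft gel. A strong region at chr15:63096699-63097959, also outside the gene, was lower in selected cells on both gels, at 9.02 and 9.98, against 12.7 and 14.5 in ancestral cells. The outer annotated start of TPM1 had a peak in the selected lists alone (chr15:63042035-63043521), with a pileup of 0.96 (soft gel) and 0.80 (stiff gel).

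Over the whole TPM1 window, unpaired peaks were not more numerous in selected than in ancestral cells. On soft gel 3 of 12 selected peaks had no ancestral partner, against 35.8% in the genome, and 3 of 12 ancestral peaks had no selected partner, against 21.7%. On stiff gel these numbers were 1 of 12, against 26.8%, and 5 of 15, against 21.7%. The median log2 ratio of regions in both lists was −0.16 on soft gel, with a counting interval of −0.49 to 0.27 over 10 regions. It was −0.18 on stiff gel, with an interval of −0.42 to 0.09 over 11 regions. Peaks of TPM1 were also narrower in selected cells: 1 of 10 regions was wider than in ancestral cells on soft gel and 0 of 11 on stiff gel. The shares were 37.3% and 16.5% in the neighbouring 5 Mb, and 48.5% and 33.8% in the genome. The neighbourhood went the same way, with a median log2 width ratio of −0.06 on soft gel and −0.26 on stiff gel.

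TPM2, the beta-tropomyosin gene (chr9:35681993-35690056), had a start peak of similar height in the 4 lists that was wider in selected cells. The peak stood at 2.90 and 3.39 in selected cells on soft and stiff gel, against 2.37 and 3.24 in ancestral cells. Its width was 3770 and 3668 bp in selected cells, against 1759 and 1815 bp in ancestral cells. The log2 width ratio of 1.10 on soft gel and 1.02 on stiff gel compares with a genome-wide median of −0.01 and −0.13. Inside the gene, chr9:35686314-35687236 had a peak in selected cells alone, at 0.65 and 0.75. Nearby, in CA9, chr9:35675072-35676416 had a selected-only peak of 1.43 (soft gel) and 0.86 (stiff gel). The TPM2 window also holds the start of TLN1, which encodes talin, with peaks of 41.9 and 44.8 in selected cells and an undetermined state in ancestral cells; that region was chosen after its values were seen. On soft gel 7 of 20 selected peaks and 1 of 15 ancestral peaks in the TPM2 window had no partner, against 35.8% and 21.7% in the genome. On stiff gel the counts were 8 of 20 and 3 of 17, against 26.8% and 21.7%.

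TPM3, a tropomyosin of most cell types (chr1:154155308-154192100), had a strong start peak of like height in all 4 lists. The peak at its outer RefSeq start stood at 24.6 and 26.7 in selected cells on soft and stiff gel, against 23.7 and 23.4 in ancestral cells. A later start inside the gene had weak peaks on soft gel alone, at 0.69 in selected cells and 0.45 in ancestral cells. Both values lie close to the lowest peak that each list holds. On soft gel 4 of 13 selected peaks and 0 of 9 ancestral peaks in the TPM3 window had no partner, against 35.8% and 21.7% in the genome. On stiff gel the counts were 0 of 9 and 2 of 11, against 26.8% and 21.7%.

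TPM4 (chr19:16067538-16103002), a short non-muscle tropomyosin, had more peaks in selected cells. Parts of its body were undetermined in ancestral cells on both gels, with 1 stretch each. The same holds for selected cells on stiff gel, with 2 stretches. Its window held 34 and 30 peaks in selected cells on soft and stiff gel, against 15 and 18 in ancestral cells. The highest peak within 1 kb of the outer start, which follows the CArG box shown, stood at 7.37 and 13.6 in selected cells, against 6.38 and 5.96 in ancestral cells. In selected cells on stiff gel this is 1 peak of 6807 bp, where the other lists hold shorter peaks of 2890, 2747 and 2800 bp at the start. Merged over the overlapping peaks, the region reached 11.0 and 13.6 in selected cells, against 10.7 and 13.9 in ancestral cells, where it touches a stretch with a skipped number. The later starts had a peak of 6.78 and 10.5 in selected cells and were undetermined in ancestral cells. On soft gel 21 of 34 selected peaks had no ancestral partner, of which 7 were undetermined, and 0 of 15 ancestral peaks had no selected partner. The neighbouring 5 Mb had 44.6% and 11.1%, and the genome 35.8% and 21.7%. On stiff gel 16 of 30 selected peaks had none, of which 5 were undetermined, and 2 of 18 ancestral peaks, both undetermined, beside 37.4% and 11.6% in the neighbourhood and 26.8% and 21.7% in the genome. Near the gene end, chr19:16100118-16101137 stood at 0.88 and 1.04 in selected cells, against 0.40 and 0.33 in ancestral cells. Relative to height its log2 ratio was 0.16 on soft gel and 0.98 on stiff gel.

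ACTN1, a cross-linker of stress fibres and focal adhesions, had more weak peaks inside its body in selected cells, with strong peaks of similar height. The gene (chr14:68874128-68979302) has no other protein-coding gene in its window and no skipped number in any list. In the body lay 28 and 25 peaks in selected cells on soft and stiff gel, against 12 and 18 in ancestral cells. The peak over the 3 outer starts stood at 16.8 and 20.7 in selected cells and at 15.9 and 17.5 in ancestral cells.

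Selected cells on soft gel had 21 of 37 ACTN1 peaks without an ancestral partner, which is 56.8% (95% exact interval 39.5 to 72.9). In the neighbouring 5 Mb the share was 34.1% and in the genome 35.8%. The reverse share was 1 of 18, against 21.7% in the genome. On stiff gel 14 of 35 selected peaks, or 40% (23.9 to 57.9), had no partner, against 17.9% in the neighbourhood, and 5 of 27 ancestral peaks had none. For these ancestral peaks the neighbourhood had 19.8% and the genome 21.7%. Both ACTN1 intervals of selected peaks lie above the share of the neighbourhood. They cover counting error in 1 list and make no allowance for the number of windows examined. The soft interval also lies above the genome's share, while the stiff interval includes the genome's 26.8%. Ancestral cells also differed between gels, with 1 of 18 peaks on soft gel alone, against 10.3% in the genome, and 11 of 27 on stiff gel alone, against 16.8%, and 4.2% and 15.9% in the neighbourhood. The selected-only peaks are weak. With both lists limited to −log10 q of at least 10 before pairing, 2 selected-only peaks were counted on soft gel and 1 on stiff gel. The ancestral-only counts were 2 and 5. A peak whose partner fell under the limit counts as unpaired there, so these counts are not a part of those above. With equal numbers of peaks per list, the soft balance of selected-only over ancestral-only peaks reversed.

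Inside ACTN1 were also opposite differences of height in regions that all 4 lists share. At chr14:68897719-68900069 the pileup stood at 1.53 and 1.23 in selected cells on soft and stiff gel, against 0.505 and 0.58 in ancestral cells. Relative to height this is a log2 ratio of 1.20 on soft gel and 0.90 on stiff gel. At chr14:68924213-68925207, chosen after its values were seen, it stood at 0.73 and 0.93 in selected cells, against 1.68 and 1.44 in ancestral cells, with −1.44 and −0.59 relative to height. The selected lists lay on one side of the ancestral lists at both regions. At the gene end, chr14:68876544-68880296 held a peak of 1.08 and 0.79 in selected cells and of 0.42 in ancestral cells on stiff gel. There was no peak in ancestral cells on soft gel. The pileup before division by the median was 55 and 44 in selected cells and 56 in ancestral cells on stiff gel. Relative to height the log2 ratio on stiff gel was 0.20.

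**Figure D2:**
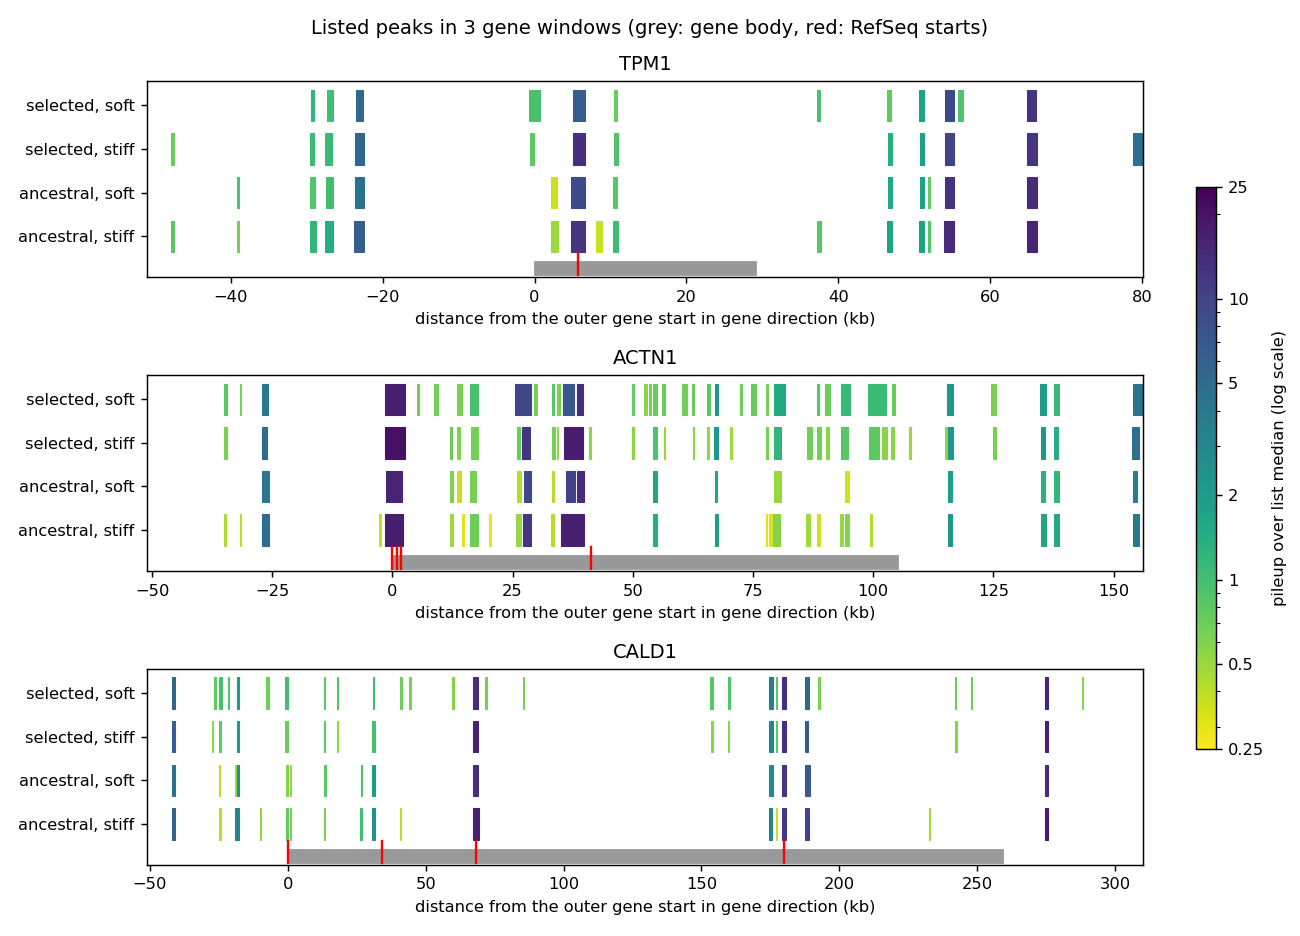
Listed peaks in the windows of TPM1, ACTN1 and CALD1 by distance from the outer gene start (kb, in gene direction), 1 row per list, coloured by pileup over list median (log scale). Grey bars are gene bodies and red lines RefSeq starts. The ACTN1 body holds 28 and 25 peaks in selected cells, against 12 and 18 in ancestral cells, and the dark peaks recur in all 4 rows.

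ACTN4, the second non-muscle alpha-actinin (chr19:38647649-38731589), had a start that could not be compared between populations. Its outer start had a peak of 6.31 in selected cells on soft gel, 6833 bp wide, and of 12.4 in selected cells on stiff gel, 1545 bp wide, and was undetermined in ancestral cells. The inner start stood at 15.6 and 16.8 in selected cells and at 14.0 and 21.3 in ancestral cells. On soft gel 18 of 39 selected peaks had no partner, or 46.2%, next to 46.4% in its neighbourhood, and 7 of 33 ancestral peaks had none, beside 35.8% and 21.7% in the genome. Of these, 2 and 5 were undetermined, which leaves 16 and 2. On stiff gel the counts were 12 of 35 and 3 of 32, beside 37.0% and 13.9% in the neighbourhood and 26.8% and 21.7% in the genome, with 5 and 2 undetermined. At chr19:38759252-38760052, beyond the gene, selected cells had a lower pileup, of 2.196 on the soft and 1.54 on the stiff gel, against 3.37 and 2.30 in ancestral cells. Both populations were higher on soft gel there.

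CALD1 (chr7:134711499-134970729) combined strong start peaks of similar height with a region that was lower in selected cells on both gels. The third start, shown above, stood at 14.2 and 16.0 in selected cells on soft and stiff gel, against 13.9 and 16.2 in ancestral cells. The fourth stood at 13.7 and 14.0, against 12.5 and 12.0. The first start had weak peaks, at 1.00 and 0.71 in selected cells and 0.60 and 0.77 in ancestral cells, and the second had none in any list.

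Between the first starts of CALD1, chr7:134742000-134743131 stood at 1.06 and 0.96 in selected cells on soft and stiff gel, against 1.97 and 2.402 in ancestral cells. Both selected lists lay below both ancestral lists, with log2 ratios relative to height of −0.98 on soft gel and −1.19 on stiff gel. A nearby region, chr7:134737709-134738525, had a peak in the ancestral lists alone, with a pileup of 0.93 (soft gel) and 1.02 (stiff gel). Both values lie above the lowest listed peak of the selected lists.

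CALD1 also had many soft-only peaks in selected cells. Of 28 peaks on soft gel 12 were absent on stiff gel, or 42.9%, against 21.9% in the genome, and 1 of 17 the other way, against 15.1%. The neighbouring 5 Mb had 38.2% and 11.3%, close to the gene's own shares. Against ancestral cells, 17 of 28 selected peaks on soft gel had no partner and 5 of 17 on stiff gel, with 3 of 14 and 5 of 17 the other way. The genome had 35.8% and 26.8%, with 21.7% the other way on both gels, and the CALD1 neighbourhood had 49.4% and 29.5% of selected peaks without a partner. With both lists limited to −log10 q of at least 10 before pairing, the soft counts were 1 selected-only and 4 ancestral-only. A peak whose partner fell under the limit counts as unpaired there.

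CNN1, the calponin of smooth muscle (chr19:11538851-11550323), had a start peak below the list median in all 4 lists. The peak stood at 0.82 and 0.96 in selected cells on soft and stiff gel, against 0.46 and 0.73 in ancestral cells. A region inside the gene, chr19:11539921-11540918, stood at 1.27 and 1.02 in selected cells, against 0.40 and 0.62 in ancestral cells. There the log2 ratio relative to height was 0.98 on soft gel and 0.46 on stiff gel. At the start it was −0.10 on soft gel and 0.21 on stiff gel, so the soft difference at the start was no larger than that of other regions of its height. Among other smooth muscle markers, the start of MYOCD had no peak in any list, DES had peaks of 0.69 and 0.68 in selected cells alone, and MYH11 stood at 0.82 and 0.88 in selected cells and 0.84 and 1.58 in ancestral cells. Over the CNN1 window 8 of 26 selected peaks and 1 of 20 ancestral peaks had no partner on soft gel, against 35.8% and 21.7% in the genome, and 6 of 22 and 0 of 18 on stiff gel, against 26.8% and 21.7%. The CNN1 neighbourhood had 44.0% and 35.0% of selected peaks without a partner on soft and stiff gel. LMOD1 stood at 4.69 and 3.61 in selected cells and at 3.16 and 3.79 in ancestral cells.

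TAGLN (chr11:117199294-117207465) could be read at its higher-coordinate end alone. The lower-coordinate end was undetermined in all 4 lists. The other end had a peak of 3.53 and 4.12 in selected cells on soft and stiff gel, against 3.88 and 4.83 in ancestral cells. Among regions with a peak in both lists, the largest log2 ratio of selected over ancestral cells in the 9 windows lay, on each gel, in the TAGLN window but inside RNF214, at chr11:117250689-117252755. It stood at 1.88 and 3.70 in selected cells, against 0.52 and 0.73 in ancestral cells, which is a log2 ratio of 1.85 on soft gel and 2.33 on stiff gel. The pileup itself, before division by the median, was 96 and 207 in selected cells and 58 and 97 in ancestral cells. Over the TAGLN window 11 of 22 selected peaks and 8 of 21 ancestral peaks had no partner on soft gel, against 35.8% and 21.7% in the genome, and 8 of 19 and 5 of 16 on stiff gel, against 26.8% and 21.7%. All of these ancestral peaks were undetermined in selected cells. The TAGLN neighbourhood had 52.1% and 44.3% of selected peaks without a partner.

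A region at the shared start of PCSK7 and RNF214, chr11:117230613-117233941, was chosen after its values were seen. It stood at 2.73 (soft gel) and 5.64 (stiff gel) in selected cells, and at 3.66 (soft gel) and 7.25 (stiff gel) in ancestral cells. Among 95 window regions with a ratio in both populations it was the 1 region that was 1.5-fold lower on soft gel in both relative to height, against 0.769% in the genome. None of the 95 was 1.5-fold higher on soft gel in both, against 0.259%.

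Over all 9 windows, peaks without a partner were more frequent in selected than in ancestral cells on both gels, and the surrounding DNA had nearly the same shares. On soft gel 110 of 231 selected peaks, or 47.6% (41.0 to 54.3), had no ancestral partner, against a genome-wide 35.8%, and 24 of 157 ancestral peaks, or 15.3% (10.0 to 21.9), had no selected partner, against a genome-wide 21.7%. Of these, 10 and 13 were undetermined. The neighbouring 5 Mb held 42.2% and 13.7%, which lie inside the intervals of the windows.

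On stiff gel 70 of 199 selected peaks, or 35.2%, and 30 of 171 ancestral peaks, or 17.5%, had no partner. The genome had 26.8% and 21.7%, and the neighbourhood 32.5% and 15.5%. Within selected cells 58 of 231 peaks (25.1%) were on soft gel alone and 25 of 199 (12.6%) on stiff gel alone, against 21.9% and 15.1% in the genome. Within ancestral cells the balance was the opposite, with 17 of 157 (10.8%) on soft gel alone and 35 of 171 (20.5%) on stiff gel alone, against 10.3% and 16.8% in the genome.

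**Figure D3:**
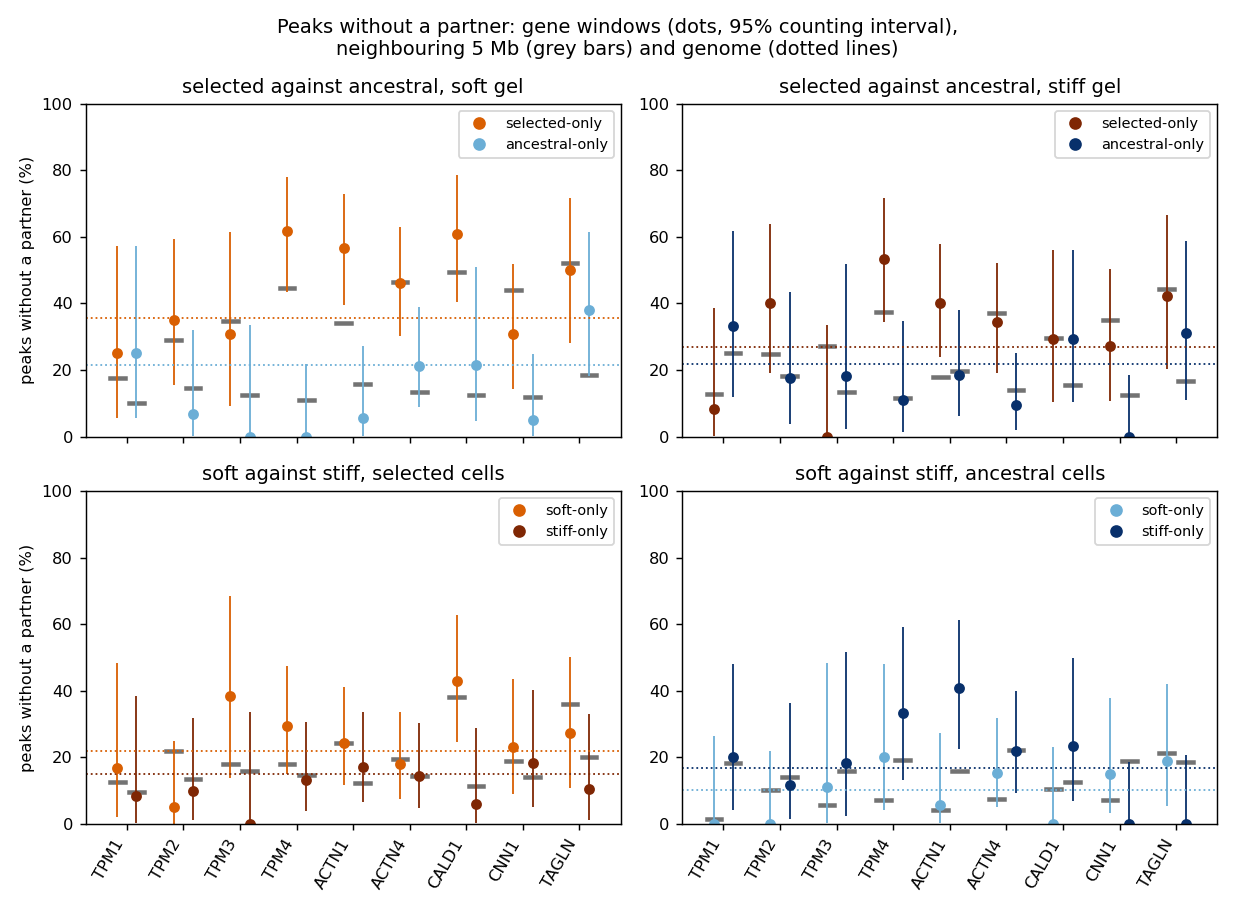
Percent of peaks without a partner in each gene window (dots, 95% exact counting intervals), in the neighbouring 5 Mb of that gene (grey bars) and in the genome (dotted lines), for the 4 comparisons. ACTN1 and TPM4 lie above their neighbourhoods in selected cells on soft gel, at 56.8% and 61.8%. Of the 21 unpaired TPM4 peaks 7 were undetermined. CALD1, TPM1 and TPM2 also lie above theirs, at 60.7%, 25% and 35%, and the other windows lie below. The intervals of TPM4, CALD1, TPM1 and TPM2 reach their grey bars and the ACTN1 interval does not.

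These unpaired peaks were weak. The 100 selected-only peaks of soft gel that were not undetermined had a median height of 0.69 and a median width of 594 bp, against 1.75 and 1241 bp for selected peaks with a partner. The 11 ancestral-only peaks had a median of 0.50, against 1.32. Of these, 11 selected-only and 7 ancestral-only peaks had −log10 q of at least 10, and on stiff gel 4 and 9. Both lists were then limited to such peaks before pairing. The soft counts became 27 selected-only and 23 ancestral-only, and the stiff counts 19 and 28. A peak whose partner fell under the limit counts as unpaired there. The direction turned on stiff gel, but the limit is a lower share of the list median in ancestral cells. On stiff gel a −log10 q of 10.2 went with 0.79 in selected cells, and one of 10.6 with 0.45 in ancestral cells. The part of this in the turn was not tested.

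Merged into 262 regions, the window peaks were found in all 4 lists in 104 cases (39.7%), in the selected pair alone in 40 (15.3%) and in the ancestral pair alone in 13 (4.96%), of which 5 and 7 were undetermined in another list. In the genome these shares were 43.7%, 9.72% and 6.39%. ACTN1 and TPM4 contributed 8 and 10 of the 40 regions of the selected pair.

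The heights of shared regions differed little as a group. The median log2 ratio of selected over ancestral cells was 0.15 on soft gel (0.06 to 0.30, 104 regions), beside 0.14 in the genome, and 0.10 on stiff gel (0.03 to 0.21, 112 regions), beside −0.01. Soft over stiff it was −0.003 in selected cells, beside 0.03 in the genome, and −0.21 in ancestral cells, beside −0.19. Relative to height, 8 and 6 of the 104 soft regions were 1.5-fold higher and lower in selected cells, against 9.7% and 10.4% of the genome. On stiff gel 5 and 5 of 112 were, against 8.99% and 9.33%. In selected cells 1 of 149 regions was higher on soft gel, against 1.46%, and in ancestral cells 2 and 3 of 115 were higher and lower, against 2.87% and 3.14%.

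Taking the gels as a pair, 4 of 95 window regions were 1.5-fold higher in selected cells on both gels, against 5.7% in the genome, and 2 were lower, against 4.58%. The 4 are the ACTN1 and RNF214 regions above, chr11:117221499-117230245 in PCSK7 and chr19:16015239-16021658 beyond TPM4, and the 2 are the ACTN1 and CALD1 regions above. These shares lie near or under the background.

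**Figure D4:**
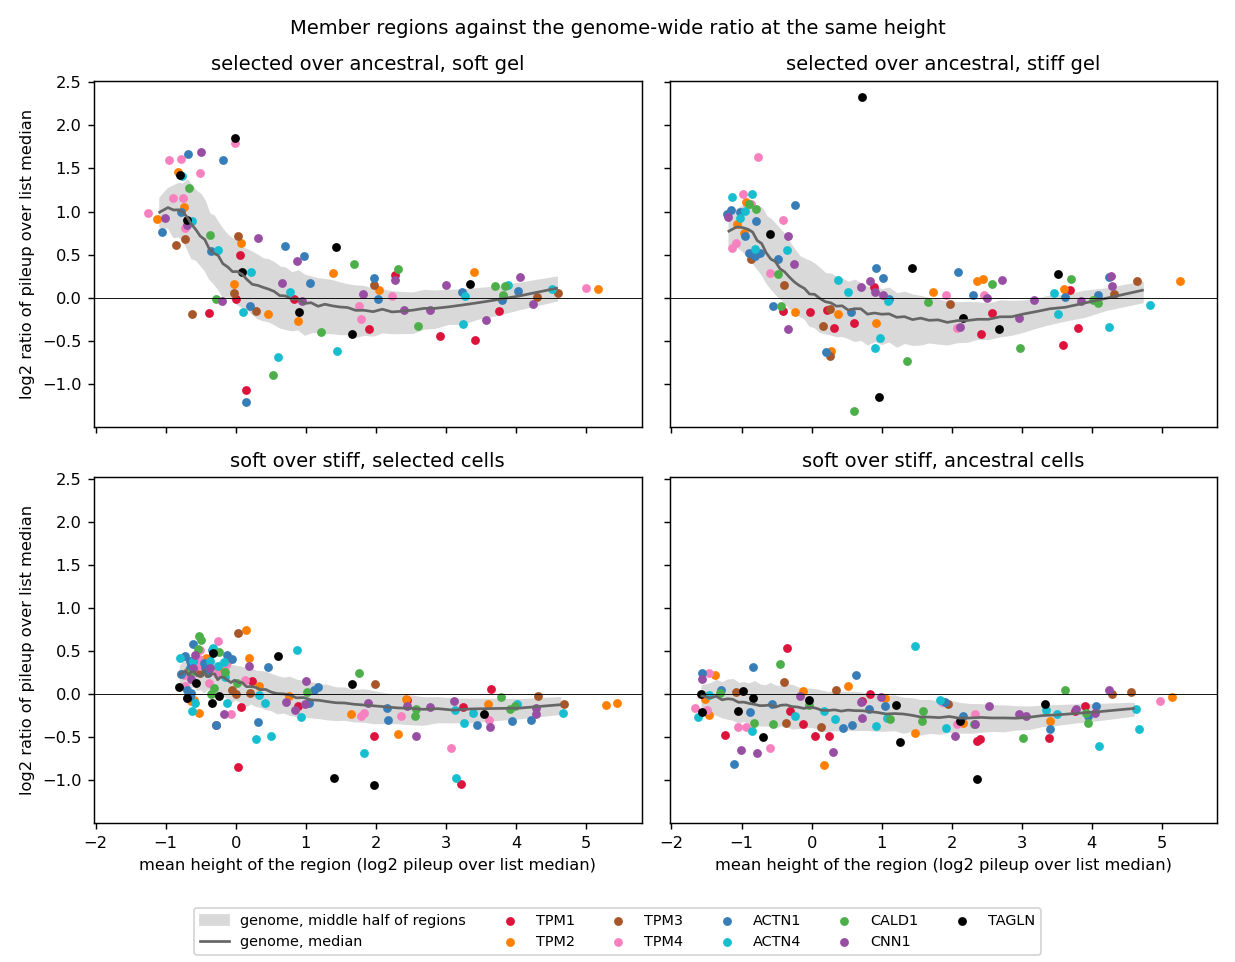
Log2 ratio of pileup over list median against the mean height of the region, for window regions (dots, coloured by gene) and for the genome (line, median; band, interquartile range), in the 4 comparisons. Weak regions have higher ratios in selected cells over the whole genome, and most member regions lie along the band, with TAGLN window regions at 1.85 and 2.33 above it.

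**Figure D5:**
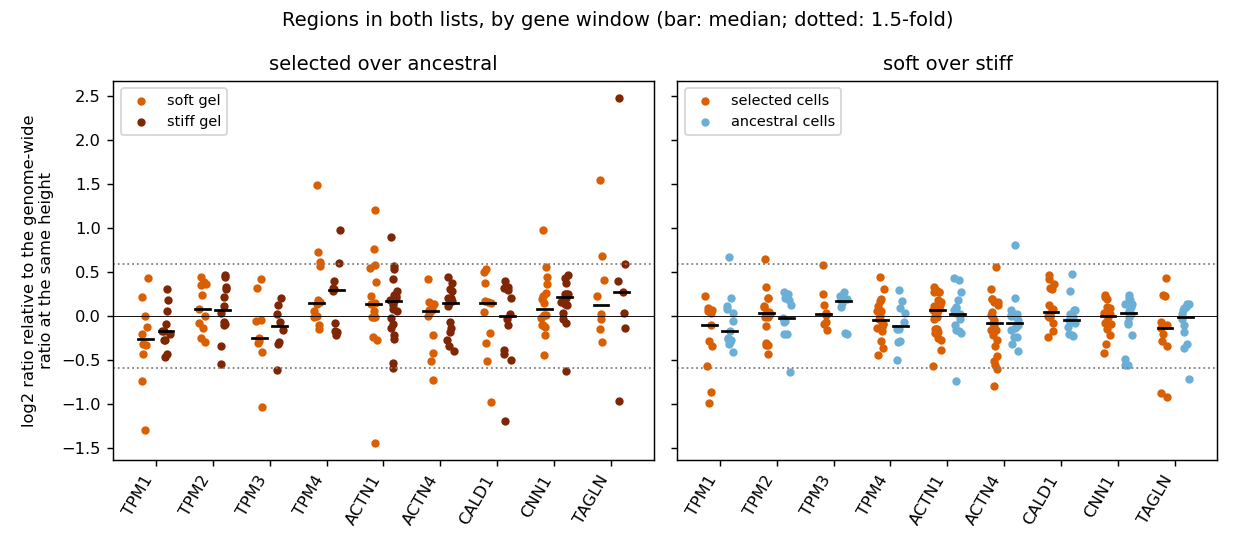
Log2 ratio relative to the genome-wide ratio at the same height, per region and gene window, for selected over ancestral cells (left) and soft over stiff gel (right). Bars are medians and dotted lines mark 1.5-fold. The lowest TPM1 dots in selected cells on the right are at −0.98 and −0.86.

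Peaks in the windows were often wide in selected cells. On soft gel 67 of 104 regions (64.4%) were wider in selected than in ancestral cells, against 63.7% in the neighbourhood and 48.5% in the genome. On stiff gel 59 of 112 (52.7%) were, against 44.5% and 33.8%. Peaks over 3 kb were 29 of 231 in selected cells on soft gel (12.6%), 22 of 199 in selected cells on stiff gel (11.1%), 9 of 157 in ancestral cells on soft gel (5.73%) and 10 of 171 in ancestral cells on stiff gel (5.85%). Over all peaks of those lists the shares were 6.29%, 5.74%, 3.99% and 4.69%, and in the neighbourhood 7.25%, 6.44%, 4.12% and 5.46%. The widest listed peak is 8443, 7950, 5650 and 5946 bp in those lists. The part of these list limits in the width counts was not tested.

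Other genes of the actin cytoskeleton gave the setting for the 9. Leaving undetermined peaks out, 8 of the 9 members had more selected-only than ancestral-only peaks on soft gel and 0 had fewer. Of 57 other genes of the pathway, 32 had more and 18 fewer, and of all protein-coding genes 60.4% and 20.6%. On stiff gel the members were 6 and 2, the pathway 28 and 23, and all genes 49.7% and 29.7%. The largest pathway balances on soft gel were at MYL9, MYH14, CAPZB and SYNPO, which were picked by these balances. MYL9, a myosin light chain, had 23 of 32 selected and 0 of 15 ancestral peaks unpaired, and MYH14, a non-muscle myosin, 21 of 27 and 2 of 8. CAPZB, a capping protein, had 17 of 34 and 1 of 23, and SYNPO, an actin-bundling protein, 16 of 40 and 2 of 25. In the ancestral list 3 peaks of MYL9 and 3 of CAPZB were undetermined. Genome-wide shares, undetermined peaks included, were 35.8% and 21.7%. On stiff gel large balances were at CAPZB with 14 of 36 and 0 of 24, and at MYL9 with 15 of 24 and 2 of 15. ACTN3, the alpha-actinin of fast muscle, had 14 of 30 and 0 of 20. For MYL9 4 ancestral peaks were undetermined. The genome-wide shares there were 26.8% and 21.7%.

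Between gels, 7 members had more soft-only and 1 more stiff-only peaks in selected cells, where the pathway had 21 and 21 and all genes 42.6% and 26.7%. In ancestral cells the members were 2 and 7, the pathway 6 and 38, and all genes 9.77% and 57.9%. MYH9, the main non-muscle myosin heavy chain, counted 2 of 47 peaks on soft gel alone and 10 of 47 on stiff gel alone in selected cells. In ancestral cells it counted 0 of 34 and 10 of 33. Left out as undetermined were 5 of its soft peaks in selected cells, and 6 soft and 1 stiff in ancestral cells. MYL9 and MYH14, also myosin genes, went the other way in selected cells. MYL9 had 13 of 32 and 4 of 24, with 2 soft peaks left out as undetermined, and MYH14 10 of 27 and 4 of 22. In ancestral cells MYL9 had 1 of 15 and 1 of 15, and MYH14 0 of 8 and 3 of 11. For the remaining myosin genes of the pathway, the difference in selected cells lay between -1 and 1. Genome-wide shares, undetermined peaks included, were 21.9% and 15.1% in selected and 10.3% and 16.8% in ancestral cells.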

How the data were processed

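Chromatin accessibility was measured by ATAC-seq in 16 samples. The deposited data used here are 4 peak lists, 1 for each group of 4 samples, and the files do not say how samples were pooled. Per the submitters' processing notes, the tools were MACS2 2.2.7.1, Bowtie2 2.4.5, Trimmomatic 0.36, MultiQC 1.1 and FastQC 0.11.4, with the build GRCh38. Per the file headers, each deposited peak has a pileup, which is a signal at its summit, a fold enrichment, and a −log10 q-value. Total read depth is not given in the files used. Pileups were scaled by the median of each list, which is not a measure of depth. The background pileup, computed from pileup and fold enrichment, was 13.5 and 12.6 in selected cells on soft and stiff gel. It was 16.3 and 20.2 in ancestral cells. Median fold enrichment was 3.59 and 4.19 in selected cells, and 6.47 and 6.27 in ancestral cells.

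The 9 genes and the lists of pathway genes and markers were chosen with earlier results of these data known. All 9 genes are described, with the region at each start, up to 3 strong regions not in all 4 lists, and up to 2 regions in all 4 with the largest ratio of 1 direction on both gels. At most 4 pathway genes per comparison are named. Values of 1 gene that this rule picks are not reported here. Regions named outside this rule, which include those in PCSK7, beyond TPM4 and at TLN1, were chosen after their values were seen. Peaks of different lists were partners when they overlapped by at least 1 bp. Ratios use regions with a peak in both lists that touch no stretch with a skipped peak number. The correction for height subtracts the genome-wide median log2 ratio in 50 bins of mean height. Neighbourhoods are the 5 Mb on each side of a gene. Intervals are exact Clopper-Pearson at 95%, or order-statistic intervals of medians, and cover counting error only. Gene extents and starts came from RefSeq tables of GRCh38.p14, with exons not used here. Scripts used python 3.11.15, scipy 1.17.1, matplotlib 3.10.9, pandas 2.3.3 and numpy 2.4.6 and were tested on simulated data. Alternatives changed the q-value limit, number of peaks, overlap, window, neighbourhood and scaling.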

Additional observations from a re-analysis of the deposited data

Results flagged for a closer look

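In 5 gene windows the balance of soft-only and stiff-only peaks had opposite signs in selected and in ancestral cells. The balance is the count of soft-only minus stiff-only peaks, with undetermined peaks left out. It was 1 in selected and -3 in ancestral cells for TPM1, 5 and -1 for TPM3, 3 and -10 for ACTN1, 2 and -7 for ACTN4, and 11 and -4 for CALD1. With 1 list per group the difference was not tested. The neighbouring 5 Mb and the whole genome show the same pair of signs.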

How the results depend on the processing

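Each group has 1 peak list. No paired analysis was possible because replicate numbers have no list of their own, and no sample could be left out. Alternatives gave 454 values for 75 results, and 76 more had a count of 0 or too few regions. Over the 9 windows, the log2 balance of unpaired peaks was 2.196 and 1.22 for selected over ancestral cells on soft and stiff gel, and 1.21 and -1.04 for soft over stiff gel in selected and ancestral cells. With both lists limited to −log10 q of at least 10 before pairing, these were 0.23, -0.56, 0.38 and -2.74. A peak whose partner fell under the limit counts as unpaired there. The second balance thus reversed, at 19 selected-only and 28 ancestral-only peaks. With the same number of peaks per list (54789) the 4 balances were 0.85, 0.42, 0.22 and -2.32. Without undetermined peaks the first was 3.18. The median log2 ratio on soft gel was 0.041 relative to height. On stiff gel it was 0.26 when scaled by peaks of all 4 lists and 0.021 at the q-value limit. Soft over stiff gel in ancestral cells it was 0.0095 when scaled by peaks of all 4 lists, a reversal, -0.010 relative to height and -0.27 in gene bodies, and in selected cells -0.11 at the q-value limit. A neighbourhood of 1 Mb had 43.8% and 34.8% unpaired selected peaks on soft and stiff gel, and 24.99% and 10.7% soft-only peaks in selected and ancestral cells. In single windows on soft gel, selected over ancestral, the balance reversed to -1 for ACTN1 with equal peak numbers, -0.32 for ACTN4 in the body, and -2 for CALD1 and -1 for CNN1 at the q-value limit, and to -1 for CALD1 soft over stiff gel in selected cells. Median ratios in ancestral cells reversed to 0.0053 for TPM4 and 0.057 for TAGLN under the 4-list scaling and 0.030 for CNN1 relative to height. The cause was not tested. Peaks under the lowest listed height cannot be seen. Over the list median that limit is higher in selected cells. As a pileup before division it is 27 and 26 in selected cells on soft and stiff gel, and 31 and 37 in ancestral cells.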
